A study of Rattus norvegicus with 44 samples.

Results

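The nuclear genes of oxidative phosphorylation were described in CA1 and in the dentate gyrus (DG) of the rat hippocampus. They were taken by symbol: the Nduf genes of complex I (families a, b, c, s and v), Sdha to Sdhd, the Uqcr genes, the Cox genes of series 4 to 8, and the Atp5 genes. In each region 83 rows matched, and 81 passed a minimum value of 10 in at least 6 libraries, of 14915 genes that passed in CA1 and 14904 in DG. The 81 comprised 37 genes of complex I (7 core and 30 accessory subunits), 4 of complex II, 8 of complex III, 14 of complex IV and 18 of complex V. Genes were grouped by symbol, so Ndufa4, which is now placed in complex IV, stands here with complex I. The 30 genes called accessory are all Nduf genes outside the 7 core ones, so they include Ndufa4 and also Ndufa4l2. The 2 rows that failed in both regions were Cox6a2 and Cox8b, subunit isoforms of heart and skeletal muscle.

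Polyadenylated RNA was sequenced from both regions of 1 hippocampus of each of 22 male rats. The young LPS group (n = 8) was 5 to 7 months old and received lipopolysaccharide, a bacterial endotoxin, at 1 mg/kg by intraperitoneal injection, weekly for 7 weeks. The aged vehicle group (n = 6) was 14 to 16 months old and received saline on the same schedule, and the young vehicle group (n = 8) was 5 to 7 months old and received saline. Tissue was taken 48 hours after the last injection. All rats were therefore injected, and no aged rat received LPS. Values are normalized read counts, scaled separately in each region by the authors. Recovered totals were 12292348 to 18749672 reads per library in CA1 and 12130182 to 23519792 in DG, of which these genes held 0.813% to 1.10% in CA1 and 0.770% to 1.11% in DG.

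Oxidative phosphorylation makes most of the ATP of neurons, which have a high demand for it at synapses. Complexes I and II pass electrons from NADH and succinate to ubiquinone, complex III passes them on to cytochrome c and complex IV to oxygen, and complex V (ATP synthase) uses the proton gradient that complexes I, III and IV build. Complex II is encoded wholly in the nucleus, whereas each of the others joins nuclear subunits with subunits encoded in mitochondrial DNA. Transcription of the nuclear subunits is known to involve NRF1, the ETS family factor GABP (also called NRF2) and YY1.

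RefSeq promoters (GRCr8, 250 bases before to 50 after the start) were matched to 73 of the 83 genes, 69 by symbol and 4 by synonym. GRCr8 is not the build of the deposited files, rn6, so these coordinates belong to the sequences only. The motif searched for NRF1 was GCGCATGCG, for the ETS family CCGGAAG and for YY1 AAGATGGC, each on both strands. At least 1 of the 3 occurred in 33 of 73 promoters (45.2%), against 12.5% of all 33469 promoters in the table. Those promoters were not limited to genes tested here, and no share among tested genes was computed. The NRF1 motif occurred in 6 (8.22%, against 1.52% of all), the ETS motif in 20 (27.4%, against 8.75%) and the YY1 motif in 16 (21.9%, against 3.17%). The 250 bases before the start are shown for 5 genes, on the gene's strand, with the matched ETS or NRF1 letters in capitals. Ndufs1 (chr9:72073606-72073855, minus strand) and Uqcrc2 (chr1:184598990-184599239, plus strand) passed the test for young LPS against aged vehicle in CA1. Ndufa13 (chr16:19560276-19560525, plus strand) and Cox8a (chr1:213833624-213833873, minus strand) had changes of the opposite sign there, and Uqcrc1 (chr8:118467973-118468222, plus strand) partners Uqcrc2 in the core proteins of complex III. The Uqcrc1 sequence holds the NRF1 motif and the other 4 hold the ETS motif.
Ndufs1: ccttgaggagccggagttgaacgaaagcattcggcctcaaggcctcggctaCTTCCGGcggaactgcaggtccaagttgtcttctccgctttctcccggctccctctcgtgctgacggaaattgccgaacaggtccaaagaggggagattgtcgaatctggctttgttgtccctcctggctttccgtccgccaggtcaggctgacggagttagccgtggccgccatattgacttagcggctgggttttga
Uqcrc2: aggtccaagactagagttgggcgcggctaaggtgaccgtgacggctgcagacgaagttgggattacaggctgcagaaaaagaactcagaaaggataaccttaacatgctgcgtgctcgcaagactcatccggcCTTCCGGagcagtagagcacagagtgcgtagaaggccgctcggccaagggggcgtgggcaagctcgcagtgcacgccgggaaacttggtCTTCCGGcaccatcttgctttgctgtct
Ndufa13: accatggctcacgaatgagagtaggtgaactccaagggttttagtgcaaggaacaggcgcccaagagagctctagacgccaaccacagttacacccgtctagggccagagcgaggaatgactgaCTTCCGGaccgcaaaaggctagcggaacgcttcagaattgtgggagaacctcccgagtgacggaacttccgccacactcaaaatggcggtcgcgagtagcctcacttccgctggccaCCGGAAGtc
Cox8a: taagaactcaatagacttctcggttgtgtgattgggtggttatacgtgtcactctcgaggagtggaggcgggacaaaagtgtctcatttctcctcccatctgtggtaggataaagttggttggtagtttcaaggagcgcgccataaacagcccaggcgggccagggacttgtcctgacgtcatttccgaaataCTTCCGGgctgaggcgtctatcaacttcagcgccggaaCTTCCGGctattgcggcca
Uqcrc1: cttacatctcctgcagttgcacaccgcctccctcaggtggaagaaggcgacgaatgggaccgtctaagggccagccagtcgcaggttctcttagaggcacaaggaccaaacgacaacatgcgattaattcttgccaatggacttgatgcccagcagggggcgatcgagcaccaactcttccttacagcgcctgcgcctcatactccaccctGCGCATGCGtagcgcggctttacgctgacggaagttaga
A match describes these letters in this window and shows no binding.

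Several libraries stood apart. The CA1 library of aged rat 2532 was the lowest of 22 for 46 of the 81 genes (56.8%) and the highest for 11 (13.6%). Of all genes tested in CA1 it was the lowest for 28.6% and the highest for 30.4%, so it stood apart well beyond these genes. The CA1 library of young vehicle rat 2572 was the highest for 21 (25.9%, against 8.44% of all genes). In DG, young LPS rats 2527 and 2543 were the lowest for 26 and 19 genes (32.1% and 23.5%, against 5.70% and 9.13% of all genes). Young vehicle rat 2526 was the highest in DG for 22 (27.2%, against 15.0% of all genes). The summaries of these genes in CA1, and the genes that lead them, are given with and without rats 2532 and 2572. The dissection was checked by marker lists. The summed level of 7 CA1 pyramidal markers was 29313 to 68271 in CA1 libraries, and in DG libraries it was 1630 to 11773 in young LPS, 2003 to 17150 in aged vehicle and 1728 to 14931 in young vehicle. The 7 dentate granule markers summed to 695 to 8104 in CA1 and 6821 to 14004 in DG, so markers of each region were also detected in the other, to differing degrees. Their part in the results was not tested.

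**Figure D1:**
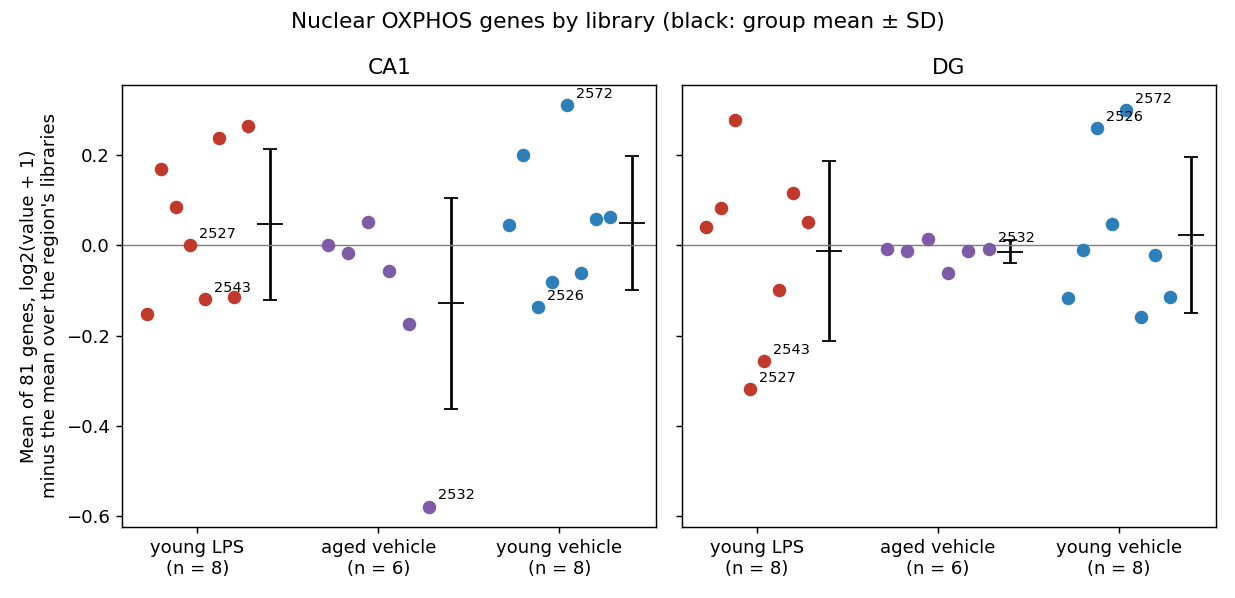
Each point is 1 library: the mean over the 81 genes of log2(value + 1) minus the mean over the region's libraries, for young LPS, aged vehicle and young vehicle in CA1 and DG, with the group mean and SD in black. In CA1 aged rat 2532 lies at -0.58, and the other 5 aged rats lie between -0.17 and 0.05; in DG the 6 aged rats lie between -0.06 and 0.02.

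In CA1 of aged rats most of these genes had lower levels than in young vehicle rats, but none passed the test, and the difference was smaller without rat 2532. Of the 81 genes, 66 had a negative and 15 a positive log2 change, with a median of -0.18, where the median of all genes tested was 0.00. At an adjusted p below 0.05 (limma, Benjamini-Hochberg over all genes) 0 of 81 were called, against 0.0134% of all genes. At an unadjusted p below 0.05 there were 16 (3 higher, 13 lower), against 12.6% of all genes (6.82% higher and 5.80% lower). In 0 of 81 did the aged and young vehicle libraries not overlap, against 0.235% of all genes. Without rats 2532 and 2572 the median was -0.06, 56 genes were negative and 25 positive, and 3 genes (1 higher, 2 lower) had an unadjusted p below 0.05, against 5.61% of all genes. By edgeR and DESeq2 on the recovered reads 0 of 81 were called too, here and in the other comparisons within a region except young LPS against aged vehicle in CA1. These tools were not run on the difference between regions. Of the 66 genes negative with all libraries, 52 stayed negative and 14 turned positive. In tissue of many cell types, fewer cells of a type and less RNA per cell cannot be told apart.

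The complexes differed in this median. It was -0.30 for complex I, -0.25 for complex IV, -0.13 for complex III, -0.12 for complex V and -0.05 for complex II. Within complex I, the 30 genes grouped by symbol as accessory subunits, which surround and stabilise the enzyme, had a median of -0.31 with 28 negative. The 7 core subunits, which carry the electrons, had -0.13 with 4 negative. Without rats 2532 and 2572 these medians were -0.06 for complex I, -0.14 for complex IV, 0.02 for complex III, -0.06 for complex V, 0.06 for complex II, -0.08 for accessory and -0.02 for core subunits.

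**Figure D2:**
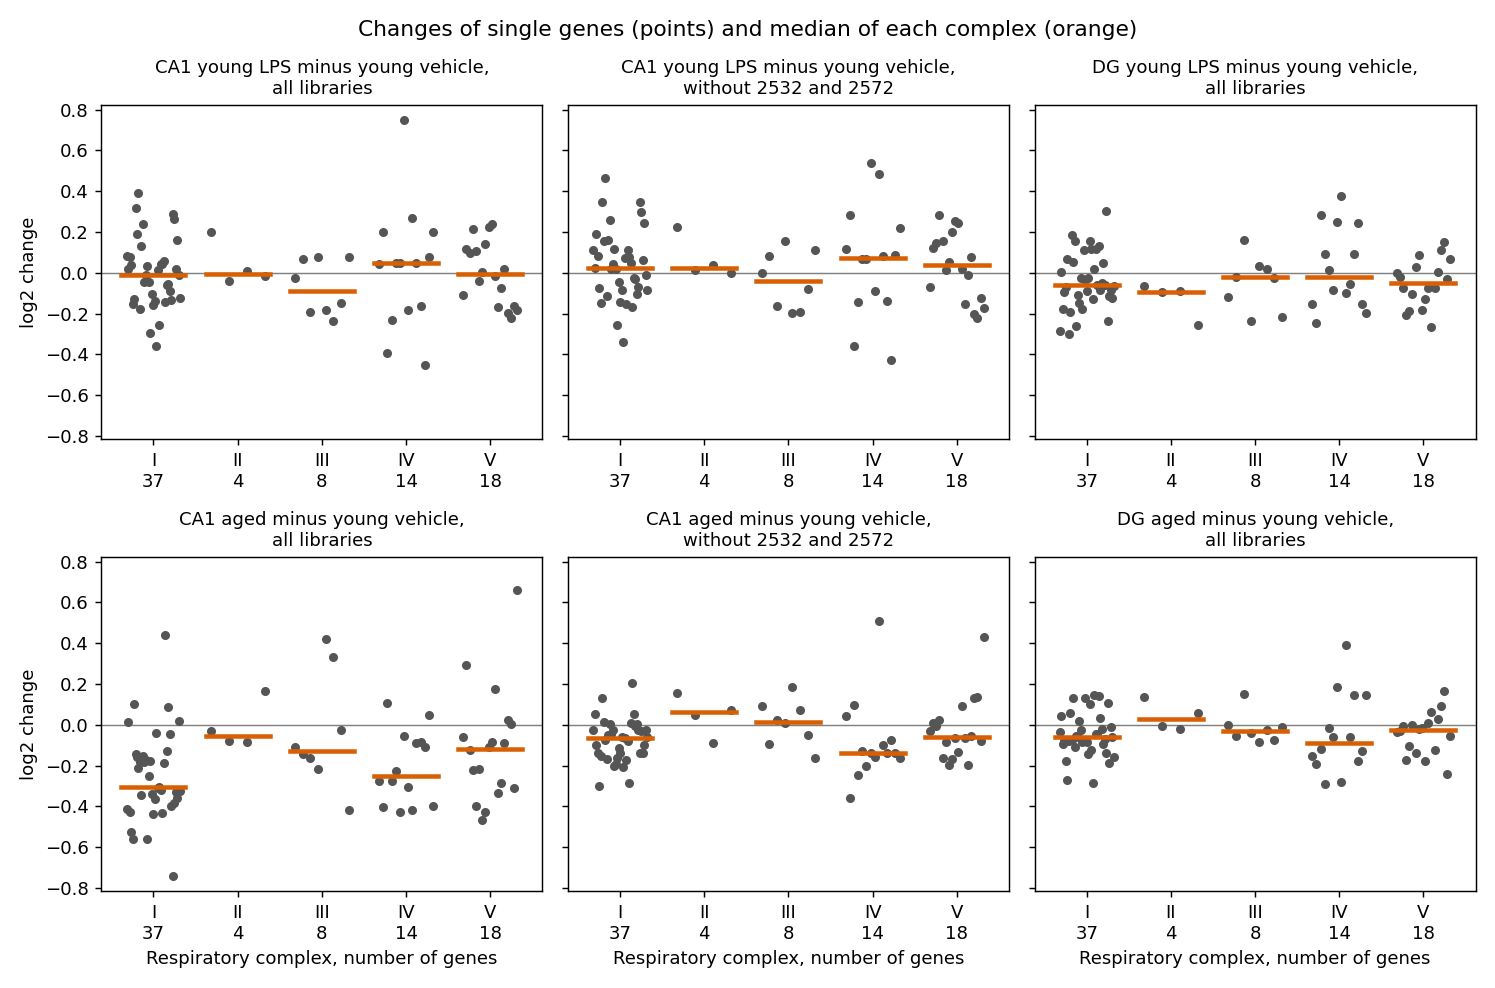
Log2 changes of single genes (points) by respiratory complex, with the median of each complex in orange; the upper row is young LPS minus young vehicle and the lower row aged minus young vehicle, for CA1 with all libraries, CA1 without rats 2532 and 2572, and DG with all libraries. The complex I median in CA1 of aged rats is -0.30 with all libraries and -0.06 without the 2 rats.

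Ndufa13 (GRIM-19), an accessory subunit of complex I, had the smallest p. Its values in CA1 were 788, 1609 and 1872 in aged rats (lowest, median, highest) and 1557, 2170 and 3158 in young vehicle rats. The lowest was rat 2532 and the highest rat 2572, and the groups overlapped between 1557 and 1872. Relative to young vehicle it changed by -0.56 on the log2 scale (SE 0.18, limma adjusted p = 0.393, unadjusted p = 0.00515), and without those 2 rats -0.30 (SE 0.14, unadjusted p = 0.0475). Ndufs8, a core subunit that holds iron-sulfur clusters, had 430, 766 and 873 in aged rats and 774, 870 and 1117 in young vehicle rats. Its change was -0.33 (SE 0.13, limma adjusted p = 0.393) with all libraries and -0.14 (SE 0.10) without the 2 rats. Ndufc1, a small accessory subunit, had 106, 180 and 198 in aged rats and 173, 206 and 292 in young vehicle rats, so the ranges overlapped between 173 and 198. Its change was -0.43 (SE 0.17) with all libraries and -0.28 (SE 0.17) without the 2 rats.

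Ndufs1, Uqcrc2 and Atp5s went the other way. Ndufs1, the largest core subunit of complex I, had 1684, 1997 and 4621 in aged rats and 1446, 1663 and 1831 in young vehicle rats. The value of 4621 was again rat 2532, and the other 5 aged rats lay between 1684 and 2178. Its change was 0.44 (SE 0.16, limma adjusted p = 0.393), and 0.20 (SE 0.11) without rats 2532 and 2572. Uqcrc2, a core protein of complex III, had 3096, 3340 and 8139 in aged rats and 2624, 2844 and 3355 in young vehicle rats, a change of 0.42 (SE 0.17), and 0.19 (SE 0.11) without the 2 rats. Atp5s, named in the table as an ATP synthase gene and also known as distal membrane arm assembly component 2 like, had 176, 209 and 557 in aged rats and 115, 159 and 188 in young vehicle rats. Its change was 0.66 (SE 0.22, limma adjusted p = 0.393), and 0.43 (SE 0.18, unadjusted p = 0.0233) without the 2 rats.

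The other preset genes spanned both directions without passing the test. In complex I, Ndufv1, which holds the NADH site, had 1046, 1991 and 2575 in aged rats and 1943, 2294 and 3753 in young vehicle rats. Ndufa4 had 1037, 2472 and 2612 in aged rats and 1474, 2489 and 3247 in young vehicle rats. In both genes the lowest aged library lay below every young vehicle library while the medians stood much closer. In complex II, Sdha, the flavoprotein, changed by -0.03 (SE 0.13) and Sdhb, the iron-sulfur protein, by -0.08 (SE 0.11). In complex III, Uqcrfs1, the Rieske iron-sulfur protein, had 1504, 1721 and 5999 in aged rats and 1410, 1602 and 2078 in young vehicle rats. Uqcrc1 changed by -0.22 (SE 0.15) and Uqcrh, the hinge protein, by -0.02 (SE 0.17). Within complexes I and III the genes thus differed in direction.

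Among the nuclear subunits of complex IV, Cox4i1, which takes part in regulation by ATP, had 2517, 6384 and 8803 in aged rats and 5022, 7132 and 10380 in young vehicle rats. Cox8a, a small subunit found in most tissues, had 1225, 2960 and 3432 in aged rats and 2279, 3721 and 4206 in young vehicle rats, and its change was -0.40 (SE 0.20, limma adjusted p = 0.393). Cox6a1 changed by -0.22 (SE 0.13), Cox5a by 0.11 (SE 0.21) and Cox7c by 0.05 (SE 0.16). In complex V, Atp5f1a, the alpha subunit of the catalytic head, had 8668, 9957 and 32241 in aged rats and 9078, 9683 and 10269 in young vehicle rats. Atp5f1b, the beta subunit that carries the catalytic sites, had 12421, 16332 and 18477 in aged rats and 14576, 16793 and 21790 in young vehicle rats. The medians of both genes differed little, and rat 2532 alone held the high alpha value. Atp5f1e, the epsilon subunit, changed by -0.40 (SE 0.18, unadjusted p = 0.0348) and Atp5po, the stalk subunit OSCP, by -0.31 (SE 0.17).

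**Figure D3:**
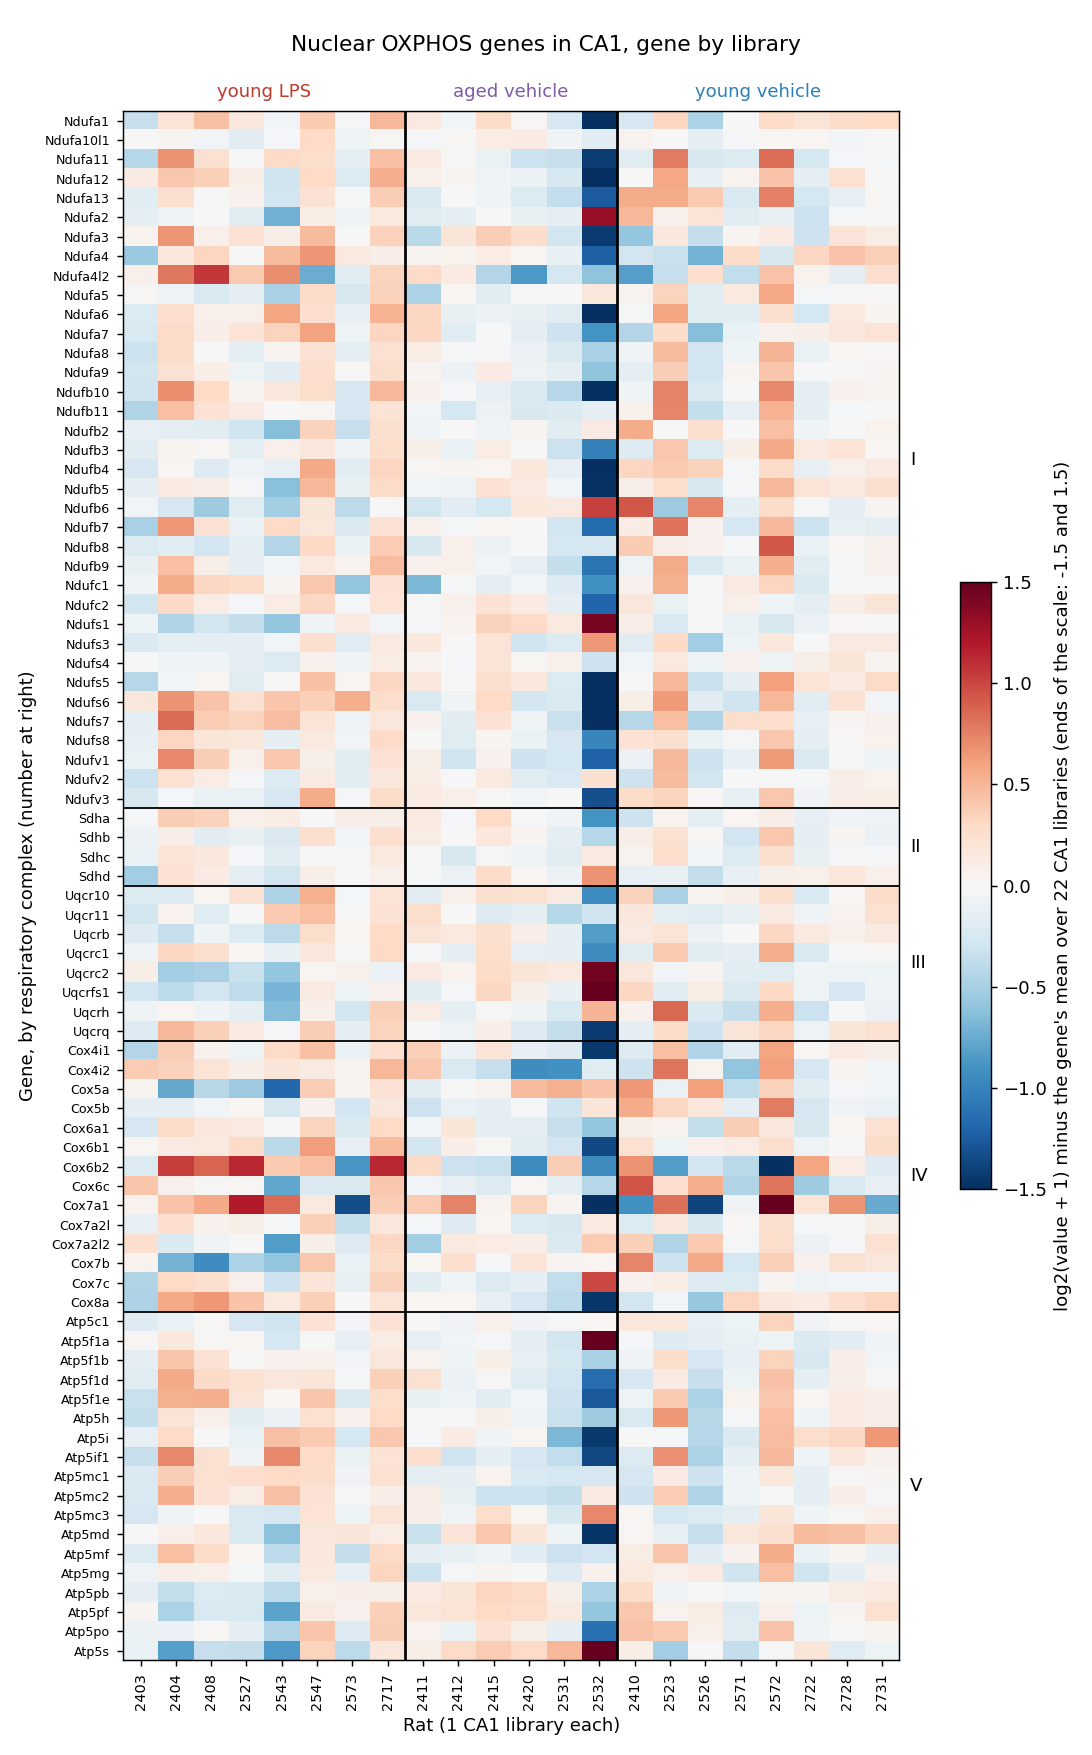
Each row is 1 gene (80 are drawn), ordered by complex, and each column 1 CA1 library, ordered as young LPS, aged vehicle and young vehicle; the colour is log2(value + 1) minus the gene's mean over 22 libraries, cut at -1.5 and 1.5. The column of aged rat 2532 holds the strongest colours of both signs, among them Atp5f1a and Uqcrfs1 high and Ndufs6 and Cox7a1 low.

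In rat 2532 the CA1 library was below the mean of the other aged rats for 56 of the 81 genes and above it for 25. Against the mean of the other 5 aged rats its median log2 difference was -0.68, where that of all genes was 0.01. It was more than 1 below for 30 genes and more than 1 above for 8, which is 46.9% of these genes and 28.2% of all genes. By complex the median was -0.96 for complex I, -0.56 for complex III, -0.45 for complex V, -0.20 for complex IV and -0.11 for complex II. The genes named next were chosen after their values were seen. Cox7a1 was at 0 in rat 2532 and 14.9 to 24.9 in the other aged rats, and Ndufs6, an accessory subunit of complex I, was at 5.83 in rat 2532 and 57.3 to 86.4 in the other aged rats. Rat 2532 had the fewest reads of the CA1 libraries (12292348), and 1 read gave a value of 1.46 in it, so these low values rest on few reads. Uqcrfs1 was at 5999 in rat 2532 and 1504 to 2083 in the others, and Atp5f1a was at 32241 in rat 2532 and 8668 to 10413 in the others. The same rat's DG library had a median difference of 0.00 and 0 genes beyond 1 in either direction.

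Other lists moved in that library too. Of 73 genes of ribosomal proteins, 40 were more than 1 below and 5 more than 1 above the other aged rats (median -1.11), and they held 0.500% of reads in rat 2532 and 0.744% to 0.867% in the others. The 11 genes of mitochondrial DNA analysed in CA1 had a median difference of 0.78 and held 11.1% of reads in rat 2532, against 7.83% to 10.5% in the others. The 7 neuron markers held 0.680% of reads in rat 2532, and 0.366% to 0.414% in the other aged rats. Singly they went both ways, 4 higher and 3 lower, with log2 differences from -1.81 to 1.46. The part of these differences in the results for age was not tested. In young vehicle rat 2572 the 11 mitochondrial genes were all more than 1 above the other young vehicle rats in CA1 and held 15.8% of reads, and 72 of the 81 nuclear genes were higher (median 0.27).

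**Figure D4:**
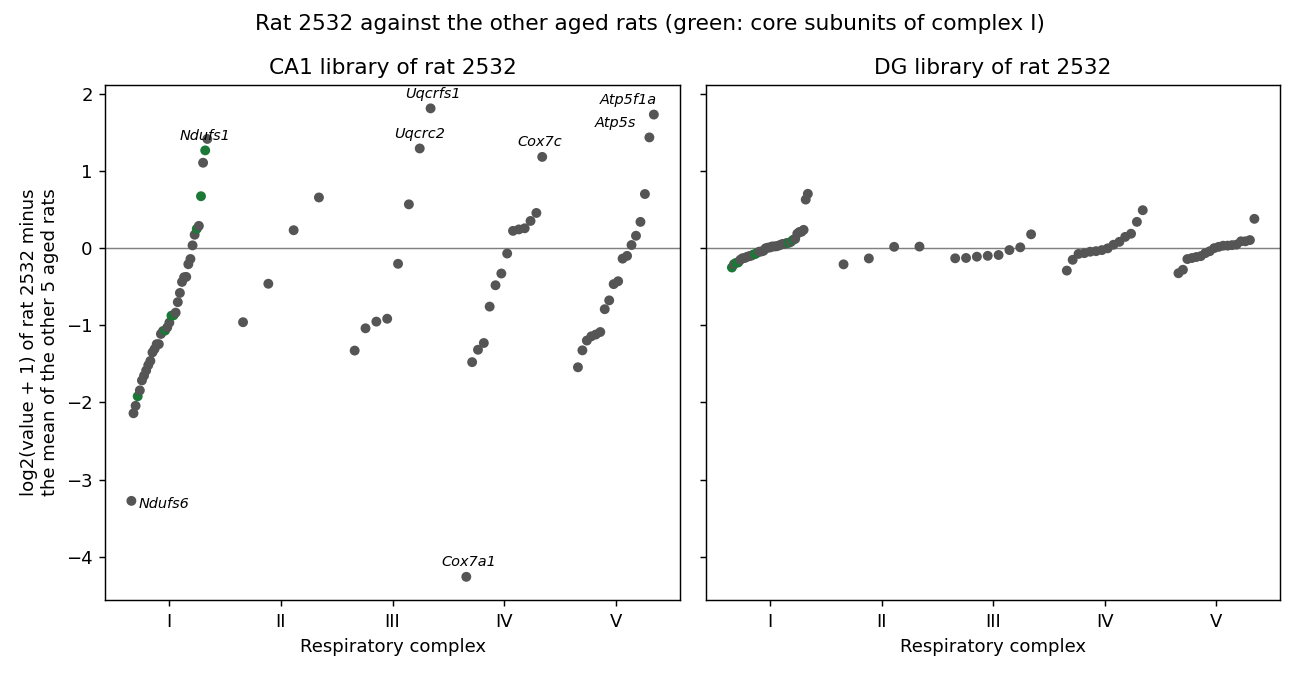
Points are single genes by complex: log2(value + 1) in rat 2532 minus the mean of the other 5 aged rats, for its CA1 library and its DG library, with the core subunits of complex I in green. In CA1 30 genes lie below -1 and 8 above 1; in DG no gene lies beyond 1.

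The rats' numbers fall in 3 series by their leading digits (24, 25 and 27), whose meaning the labels do not give. In series 25 the mean of the 81 genes in CA1, relative to all CA1 libraries, was -0.38 in 2 aged rats (2531 and 2532), against 0.07 in 4 young vehicle rats. In series 24 it was 0.00 in 4 aged rats and 0.05 in 1 young vehicle rat, and series 27 held no aged rat. The larger difference was therefore the one in series 25, where 1 of the 2 aged rats is 2532.

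In CA1 of rats given LPS these genes were spread evenly around the young vehicle level when all libraries were used. There were 41 positive and 40 negative changes, with a median of 0.01, where that of all genes was 0.01. At an adjusted p below 0.05, 0 of 81 and 0% of all genes were called. At an unadjusted p below 0.05 there were 4 (2 higher, 2 lower), against 6.87% of all genes, and 0 of 81 had groups that did not overlap, against 0.0134% of all genes. Without rats 2532 and 2572 the median was 0.04, with 49 positive and 32 negative. In that fit 10 of the 81 (7 higher, 3 lower) had an unadjusted p below 0.05, against 2580 of all 14915 genes. The 4 genes found with all libraries were Cox7b and Ndufb2, both lower, and Atp5mc1 and Cox6b2, both higher.

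Cox7b, a small subunit of complex IV, had 611, 967 and 1542 in young LPS and 942, 1345 and 1943 in young vehicle, a change of -0.45 (SE 0.17, limma adjusted p = 0.654), and -0.43 (SE 0.18) without rats 2532 and 2572. Ndufb2, an accessory subunit of complex I, had 510, 717 and 1007 in young LPS and 758, 812 and 1168 in young vehicle, a change of -0.30 (SE 0.12), and -0.25 (SE 0.12) without the 2 rats. Atp5mc1, which encodes subunit c of the rotor ring of ATP synthase, had 974, 1341 and 1466 in young LPS and 915, 1117 and 1265 in young vehicle. Of the 8 LPS libraries, 6 lay above the highest young vehicle library, and the change was 0.22 (SE 0.09, limma adjusted p = 0.654), and 0.25 (SE 0.09) without the 2 rats. Atp5mc2, another gene for the same subunit c, had 1612, 2121 and 2759 in young LPS and 1390, 1838 and 2474 in young vehicle. Genes of this kind encode near-identical mature proteins, and how reads were shared among close copies and pseudogenes is not given in the sources used here.

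When young LPS was set against aged vehicle in CA1, 4 of the 81 genes passed the test: Atp5mc1 was higher, and Ndufs1, Uqcrc2 and Atp5s were lower. All 4 had an adjusted p of 0.0490, next to the threshold, and 8.73% of all genes passed. At an unadjusted p below 0.05 there were 31 genes (26 higher, 5 lower), against 35.8% of all genes (17.3% higher and 18.5% lower). The median change was 0.21 and 60 genes were positive, where the median of all genes was 0.02. None of the 81 had groups that did not overlap (0 genes, against 0.838% of all genes). Without rats 2532 and 2572 the median was 0.10 with 52 positive, 0 of 81 were called and 4 of all genes were called, and 20 genes (14 higher, 6 lower) had an unadjusted p below 0.05, against 27.3% of all genes. Leaving out 1 rat at a time gave between 0 and 19 called genes of the 81: 19 without 2411, 11 without 2403, 9 without 2573, 5 without 2547 or 2572, 4 without 2412 or 2523 and 0 without any other rat. Of all genes, 0 to 3399 were called in these fits. This comparison shares its libraries with the other two, so its values are not independent of them.

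Ndufs1 had 1149, 1529 and 1899 in young LPS and 1684, 1997 and 4621 in aged vehicle. Of the 8 LPS libraries, 7 lay below the lowest aged library. The change was -0.58 (SE 0.16, limma adjusted p = 0.0490) with all libraries, and -0.37 (SE 0.11, limma adjusted p = 0.0988) without rats 2532 and 2572. Uqcrc2 had 1993, 2581 and 3160 in young LPS and 3096, 3340 and 8139 in aged vehicle, and 6 of the 8 LPS libraries lay below the lowest aged library. Its change was -0.60 (SE 0.17, limma adjusted p = 0.0490), and -0.39 (SE 0.11, limma adjusted p = 0.0988) without the 2 rats. Atp5s had 90.7, 130 and 208 in young LPS and 176, 209 and 557 in aged vehicle, a change of -0.84 (SE 0.22, limma adjusted p = 0.0490), and -0.60 (SE 0.17) without the 2 rats. With rat 2532 alone left out these 3 genes kept their direction and lost their call, at a limma adjusted p of 0.119 each.

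Atp5mc1 had 974, 1341 and 1466 in young LPS and 945, 997 and 1179 in aged vehicle. Rat 2532 was not extreme for this gene, and 6 of the 8 LPS libraries lay above the highest aged library. The change was 0.33 (SE 0.10, limma adjusted p = 0.0490) with all libraries, and 0.32 (SE 0.10, limma adjusted p = 0.101) without rats 2532 and 2572, so its call was lost too while its size stayed. Cox8a had 2448, 4084 and 5290 in young LPS and 1225, 2960 and 3432 in aged vehicle, and its change of 0.60 (SE 0.20) missed the threshold (limma adjusted p = 0.0549). By edgeR on the recovered reads 5 genes were called, the 4 and Uqcrfs1. By DESeq2 on the same reads 12 were called, 8 higher and 4 lower, which hold the same 4. Of all 14915 genes, edgeR called 2144 and DESeq2 3299.

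**Figure D5:**
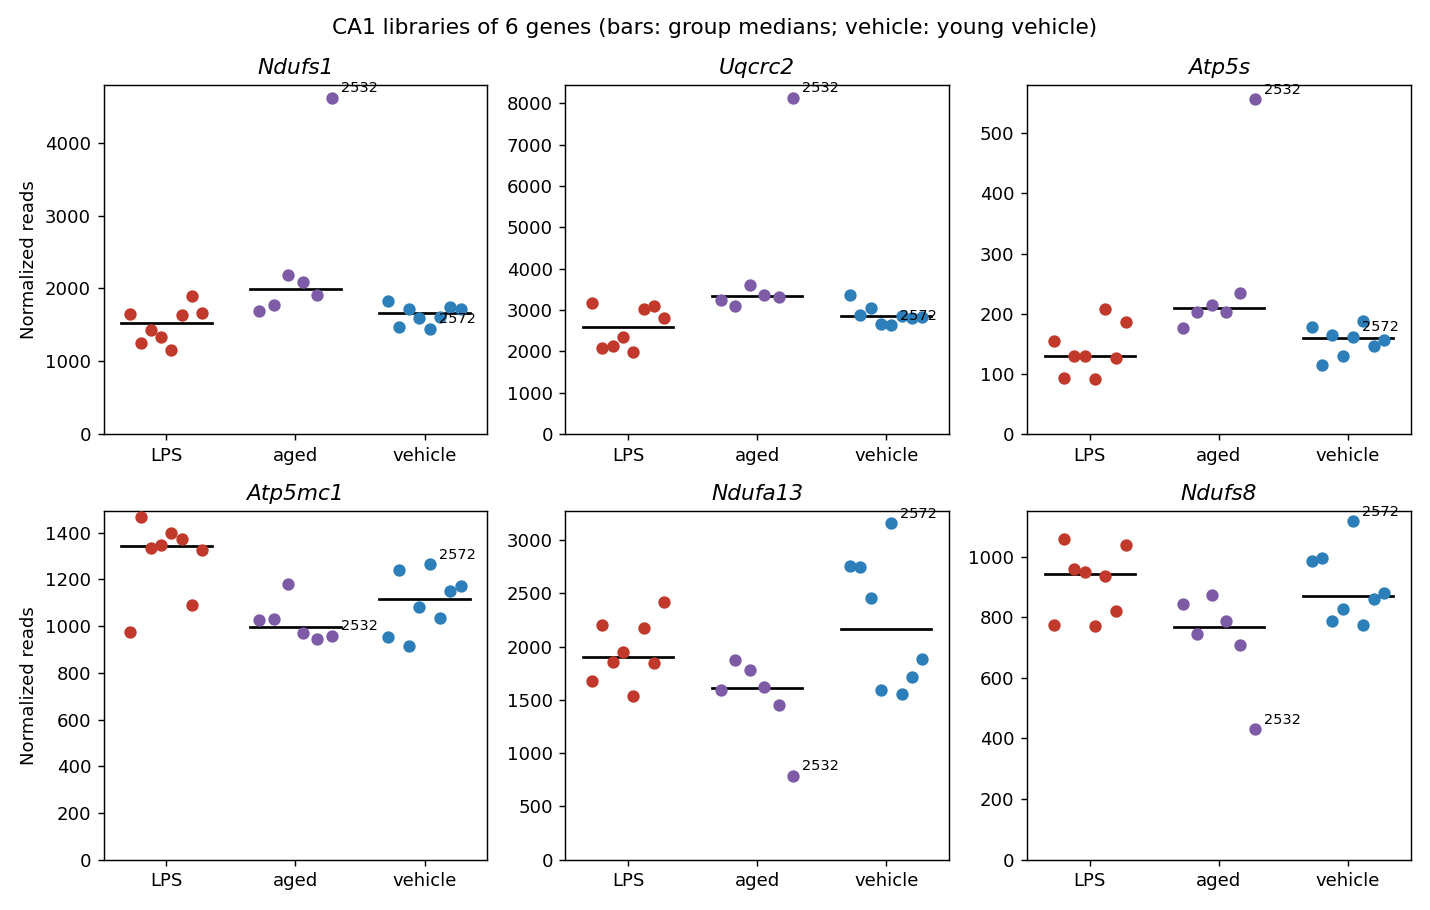
Normalized reads of 6 genes in each CA1 library (points) of young LPS, aged and young vehicle rats, with group medians as bars and rats 2532 and 2572 marked. Rat 2532 is the highest library for Ndufs1 (4621), Uqcrc2 (8139) and Atp5s (557) and the lowest for Ndufa13 (788) and Ndufs8 (430).

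In DG of rats given LPS, 51 genes had a negative and 30 a positive change, with a median of -0.06, where that of all genes was 0.00. At an adjusted p below 0.05, 0 of 81 were called, against 0.0134% of all genes. An unadjusted p below 0.05 was found for 6, all lower, against 7.53% of all genes, and 0 of 81 had groups that did not overlap, against 0.0403% of all genes. Ndufs7, a core subunit that holds the last iron-sulfur cluster of complex I, had 839, 933 and 1180 in young LPS and 974, 1139 and 1357 in young vehicle, a change of -0.24 (SE 0.08, limma adjusted p = 0.528). Ndufa7, an accessory subunit, had 664, 942 and 1163 in young LPS and 939, 1094 and 1209 in young vehicle. Both genes had overlapping groups with most LPS libraries in the lower part of the young vehicle range or below it. Uqcrc1 had 2411, 2910 and 3310 in young LPS and 2894, 3094 and 4445 in young vehicle, a change of -0.24 (SE 0.09, limma adjusted p = 0.565).

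All 4 genes of complex II had negative changes with LPS in DG, with a median of -0.09. Sdhd, a membrane anchor, alone among them had an unadjusted p below 0.05, with 984, 1189 and 1601 in young LPS and 1314, 1406 and 2024 in young vehicle. The genes nearest to a rise were Cox5a, with 822, 1122 and 1784 in young LPS and 726, 969 and 1432 in young vehicle, Ndufa6 and Ndufs6. Ndufa6 had 1058, 1166 and 1507 in young LPS and 872, 1063 and 1345 in young vehicle, and Ndufs6 had 60.1, 72.0 and 147 in young LPS and 50.3, 60.4 and 90.1 in young vehicle. Of 4 markers of meningeal fibroblasts, 2 (Dcn and Lum, neither at 0 in any library) were analysed in DG, and they summed to 57.1 to 221 in young LPS and 49.8 to 452 in young vehicle. Without rats 2526, 2572 and 2532, whose DG libraries had the highest sums, a choice made after seeing the data, the median LPS change was 0.04, with 50 genes positive and 31 negative. The part of these cells in the result was not tested.

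In DG of aged rats the levels were close to those of young vehicle rats. There were 57 negative and 24 positive changes, with a median of -0.04, where that of all genes was 0.01. At an adjusted p below 0.05, 0 of 81 were called, against 0.0134% of all genes. At an unadjusted p below 0.05 there was 1, Atp5mc2, which was lower, against 2.99% of all genes, and 0 of 81 had groups that did not overlap, against 0.0738% of all genes. Atp5mc2 had 1535, 1972 and 2041 in aged rats and 1866, 1987 and 2673 in young vehicle rats, a change of -0.18 (SE 0.09, limma adjusted p = 1.00). Sdha had 3640, 3986 and 4260 in aged rats and 3335, 3563 and 4075 in young vehicle rats, a change of 0.14 (SE 0.07). After Sdha, the smallest p among genes with a positive change belonged to Ndufs1 and Ndufb9. After Atp5mc2, the smallest among those with a negative change belonged to Atp5f1d and Ndufb8. The change of Ndufs1 lay between 0.05 and 0.17 over 34 alternatives, and it was called in none of them. Ndufb9 had 1534, 1908 and 2285 in aged rats and 1495, 1652 and 2159 in young vehicle rats, Ndufb8 had 2067, 2140 and 2341 in aged rats and 2012, 2249 and 4219 in young vehicle rats, and Atp5f1d, the delta subunit, had 2229, 2421 and 2713 in aged rats and 2502, 2649 and 3217 in young vehicle rats. The range of the 81-gene mean was narrower in aged rats (-0.06 to 0.02) than in young LPS (-0.32 to 0.28) and young vehicle (-0.16 to 0.30), a difference that was not tested. Without rats 2526, 2572 and 2532 the median change was 0.03, with 54 positive and 27 negative. Rats 2526 and 2572 had the highest 81-gene means of the young vehicle DG libraries, so leaving them out moves this change upward too.

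For young LPS against aged vehicle in DG, 37 changes were positive and 44 negative, with a median of -0.01. At an adjusted p below 0.05, 0 of 81 were called, against 0.0134% of all genes. An unadjusted p below 0.05 was found for 11 (6 higher, 5 lower), against 9.10% of all genes, and 0 of 81 had groups that did not overlap, against 0.443% of all genes. Ndufs7 had 839, 933 and 1180 in young LPS and 1139, 1203 and 1412 in aged vehicle, so the ranges met only between 1139 and 1180. Its change was -0.34 (SE 0.09, limma adjusted p = 0.227). Ndufa6 had 1058, 1166 and 1507 in young LPS and 947, 1005 and 1060 in aged vehicle, which overlapped by only 1058 to 1060, a change of 0.26 (SE 0.09, limma adjusted p = 0.394). Sdha changed by -0.20 (SE 0.07) and Sdhd by -0.31 (SE 0.11), in complex II, where all 4 genes were negative with a median of -0.15.

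Whether the effects differed between the regions was tested rat by rat, on the CA1 value less the DG value. For LPS the median difference was 0.06, with 48 positive and 33 negative, and 0 of 81 were called, against 0.00683% of all genes. This median turned to -0.02 without rat 2526, so its sign rested on that rat. At an unadjusted p below 0.05 there were 11 (6 higher, 5 lower), against 13.0% of all genes. Cox5a, a subunit of complex IV, had 408, 819 and 1194 in young LPS and 707, 904 and 1443 in young vehicle in CA1, where its change was -0.39, and 0.28 in DG. The difference was -0.68 (SE 0.20, unadjusted p = 0.00235, limma adjusted p = 0.351). Atp5mc1 had the opposite pattern, with changes of 0.22 in CA1 and -0.18 in DG and a difference of 0.41 (SE 0.14, limma adjusted p = 0.351), and Ndufa7 had a difference of 0.50 (SE 0.17, limma adjusted p = 0.351).

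For age the median difference between regions was -0.14, with 64 negative and 17 positive, where that of all genes was 0.00. At an adjusted p below 0.05, 0 of 81 and 0% of all genes were called, and at an unadjusted p below 0.05 there were 5 (2 higher, 3 lower), against 5.21% of all genes. Atp5s changed by 0.66 in CA1 and -0.06 in DG, a difference of 0.72 (SE 0.28, limma adjusted p = 0.735). Cox8a changed by -0.40 in CA1 and 0.15 in DG, a difference of -0.54 (SE 0.21, limma adjusted p = 0.735), and Uqcrc2 by 0.42 in CA1 and -0.08 in DG, a difference of 0.51 (SE 0.21). Without rats 2532 and 2572 the median difference was -0.03, with 49 negative and 32 positive, and 0 genes had an unadjusted p below 0.05.

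The tissue-restricted isoforms of complex IV were scarce. Cox4i2, which replaces Cox4i1 in lung and under low oxygen, had 54.7, 60.7 and 75.3 in young LPS, 27.2, 43.2 and 70.4 in aged vehicle and 34.7, 53.0 and 92.8 in young vehicle in CA1. Its change in LPS against aged vehicle was 0.60 (SE 0.22, limma adjusted p = 0.0627). Cox6b2, a testis isoform, had 6.19, 19.96 and 27.7 in young LPS, 5.83, 9.48 and 16.0 in aged vehicle and 2.94, 10.2 and 19.97 in young vehicle in CA1, and its LPS change was 0.75 (SE 0.35, limma adjusted p = 0.654). Cox7a1, a muscle isoform, had 5.16, 19.4 and 34.4 in young LPS, 0, 16.7 and 24.9 in aged vehicle and 4.91, 15.4 and 44.1 in young vehicle in CA1. These 3 genes also passed the filter in DG, where none had an unadjusted p below 0.05 in the 3 comparisons. Cox6a2 did not exceed 14.6 in CA1 or 12.3 in DG, Cox8b did not exceed 14.6 in CA1 or 12.4 in DG, and Cox7b2 and Cox8c were not analysed here. Cox7a1 had the largest spread within groups of the 81 genes in both regions (a pooled SD of log2 values of 1.18 in CA1 and 0.81 in DG), and the median gene had 0.33 in CA1 and 0.23 in DG.

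Genes around the pathway were taken as lists. In CA1 of aged rats, 0 of 43 assembly factors were called (5 at an unadjusted p below 0.05, 3 higher and 2 lower), with a median of 0.09. Of all genes, 12.6% had such a p (6.82% higher and 5.80% lower). The 12 genes of the citric acid cycle and pyruvate dehydrogenase had a median of 0.10 (2 higher at an unadjusted p below 0.05), the 11 regulators 0.06 (1 higher) and the 11 mitochondrial genes -0.04 (0 genes). The medians without rats 2532 and 2572 were 0.02 for assembly factors, 0.05 for the citric acid cycle genes, 0.04 for regulators and 0.05 for mitochondrial genes, and 0 genes of these lists had an unadjusted p below 0.05. The medians of the first 3 lists were thus above 0 both ways, where that of the 81 nuclear subunits was -0.18 with all libraries and -0.06 without the 2 rats, a difference that was not tested. Ribosomal proteins, another large set of nuclear genes, had a median of -0.40, with 65 of 73 negative and 28 lower at an unadjusted p below 0.05, and a median of -0.14 without rats 2532 and 2572.

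For young LPS against aged vehicle in CA1, 7 of 43 assembly factors were called, all lower, where 8.73% of all genes were called. Those with the smallest p were Ndufaf4 and Tmem126b, which assemble complex I, at -0.73 and -0.49, and Atpaf1, which assembles ATP synthase, at -0.49 (limma adjusted p = 0.0490 each). Of 11 regulators, Tfam, which packages and transcribes mitochondrial DNA, was called at -0.37 (limma adjusted p = 0.0490). Pdha1 of pyruvate dehydrogenase (-0.50) and Sucla2 of the citric acid cycle (-0.66) were called among 12 genes, and so were the electron carriers Cycs (-0.62, limma adjusted p = 0.0497) and Etfdh (-0.47) among 4. Of 73 ribosomal proteins, Rpl22 (0.80) and Rps18 (0.84) were called, both higher. With rats 2532 and 2572 left out, 0 genes of these lists were called, and 12 of 43 assembly factors, all lower, had an unadjusted p below 0.05. Of all 14915 genes, 27.3% had such a p in that fit (1980 genes higher and 2087 lower). In the other comparisons, with all libraries, 0 genes of these lists were called, except Rpl6 in DG with LPS (-0.69, limma adjusted p = 0.00595).

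With LPS the mitochondrial genes had a median change of -0.11 in CA1 (10 of 11 negative) and 0.10 in DG (10 of 13 positive). The CA1 median turned to 0.04, with 6 of 11 positive, without rats 2532 and 2572. With all libraries, 0 in CA1 and 2 in DG, 1 in each direction, had an unadjusted p below 0.05. The DG median rose to 0.29, with 12 of 13 positive, without rats 2526, 2572 and 2532. In that fit 8 of the 13, all higher, had an unadjusted p below 0.05, against 1351 of all 14904 genes. None of the 13 was called there (smallest limma adjusted p = 0.486). Young vehicle rat 2572 was above the mean of the other young vehicle rats for all 13 genes in DG (median log2 difference 0.79). Leaving it out, a choice made after seeing the data, therefore moves the LPS change of these genes upward by itself. The mitochondrial genes held 5.55% to 11.3% of reads in young LPS, 7.83% to 11.1% in aged vehicle and 7.97% to 15.8% in young vehicle in CA1, so the 3 groups overlapped.

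The motif letters in the promoters were set beside the age change in CA1. The 20 genes with the ETS motif had a median change of -0.28 (14 negative), and the 51 without it -0.18 (43 negative), so the share of negative changes was the smaller with the motif although the median was lower. The 6 genes with the NRF1 motif had -0.26 (6 negative) and the 65 without it -0.18 (51 negative). The 16 genes with the YY1 motif had -0.25 (14 negative) and the 55 without it -0.16 (43 negative). With rats 2532 and 2572 left out, the medians were -0.05 with and -0.07 without the ETS motif, -0.09 with and -0.06 without the NRF1 motif, and -0.08 with and -0.06 without the YY1 motif. Both directions occurred with the same letters: Ndufs1 and Uqcrc2, with positive changes, and Ndufa13 and Cox8a, with negative ones, all hold the ETS motif shown above. These differences were not tested.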

How the data were processed

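Both regions of 22 rats gave 44 libraries. The authors deposited, for each region, a table of normalized counts, a signal that is never negative, per the file headers. Per the submitters' processing notes the tools were STAR, Partek and DESeq2 and the build rn6, without versions or roles. The sources used here give no annotation, read filter or use of strand, so reads of antisense or near-identical genes may be shared. Per library the deposited values were multiples of the value of 1 read. Dividing by it gave whole reads (tolerance 0.1) for 99.8% of values in CA1 (176 rows held fractions) and 100% in DG. Counts cover counting error only. Levels were tested within a region.

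The members and lists were chosen with earlier results of these data known. Genes that reached 10 in 6 or more libraries were tested with limma 3.58.1 (R 4.3.3; trend and robust options) on log2(value + 1), with all 3 groups in 1 fit per region, Benjamini-Hochberg adjustment over all genes and a threshold of 0.05. This scale understates changes of low genes. A median change is over genes. Both regions came from 1 hippocampus and the labels carry the rat's number, so regions were compared on CA1 minus DG within each rat; deviations of a rat's libraries correlated across genes with a median of 0.05, above 0.1 in 8 of 22 rats. Text names, per comparison, the 6 largest and 6 smallest changes past the threshold (where fewer than 3 passed in a direction, the 3 smallest p), 22 preset subunits in at least 1 comparison (1 of them is not reported here), the tissue isoforms and, of other lists, up to 3 called genes each way. The procedure was tested on simulated data. Alternatives covered pseudocount, filter, scaling, weights, number series, groups in the fit, edgeR 4.0.16 and DESeq2 1.42.0 on recovered reads, and leaving out libraries. No RefSeq protein or transcript length was used here, so levels are not compared between genes. RefSeq promoters are of GRCr8.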

Additional observations from a re-analysis of the deposited data

Results flagged for a closer look

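Values were looked at for 35 genes and 8 means in 6 groups each, 258 groups in all. In 26 the highest or lowest library was farther from its nearest neighbour than the 95% critical value of Dixon's ratio allows; chance gives about 1 in 20 groups. The CA1 library of aged rat 2532 accounted for 15. Its mean over the 81 genes was -0.58, over complex I -0.85, over complex I accessory subunits -0.96 and over complex IV -0.59. It was the highest aged library for Atp5f1a (32241), Uqcrc2 (8139), Uqcrfs1 (5999), Cox7c (5070), Ndufs1 (4621) and Atp5s (557). It was the lowest for Atp5po (1200), Ndufa4 (1037), Atp5f1e (820), Ndufs8 (430) and Ndufs6 (5.83).

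The other 11 fell in 11 rats, 1 in each. In CA1, Atp5mc1 was highest among aged rats in 2415 (1179) and Ndufb8 highest among young vehicle rats in 2572 (4205). In DG of aged rats, the 81-gene mean was lowest in 2420 (-0.062), Cox8a lowest in 2531 (2181), Ndufv1 lowest in 2532 (2213) and Uqcrc2 highest in 2412 (3776). In DG of young LPS rats, Cox4i1 was highest in 2543 (9027), Cox6b2 highest in 2547 (44.9), Ndufa4 highest in 2717 (3253) and Ndufs6 highest in 2573 (147). In DG of young vehicle rats, Sdhd was highest in 2728 (2024).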

How the results depend on the processing

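The count of 4 genes called for young LPS against aged vehicle in CA1 rested near the threshold. It was 0 without the filter, 0 on values scaled to equal read totals and 0 with only the 2 groups compared in the fit. It was also 0 without rats 2532 and 2572 together. Of all genes, 3, 2, 0 and 4 were called in these fits, in the same order. The count among the 81 genes was 20 with library weights (16 higher, 4 lower) and 12 by DESeq2. With the number series as a covariate it was 16 (13 higher, 3 lower). Of all 14915 genes, 3496 were called with library weights, 3299 by DESeq2 and 2910 with the number series, against 1302 in the main fit. The count among the 81 stayed at 4 with pseudocounts of 5 and 0.25 and with TMM scaling. It was 5 by edgeR and 5 with a mean of at least 50. Of all genes, 1338, 1194, 1286, 2144 and 1911 were called in these fits, in that order. Leaving out 1 rat at a time gave 0 to 19 of the 81 (19 without 2411, 11 without 2403, 9 without 2573, 5 without 2547 or 2572, 4 without 2412 or 2523 and 0 without any other rat), and 18 of the 22 moved this count by more than 1.5 times. Of all genes, 0 to 3399 were called in these fits. Over 34 alternatives Ndufs1 ran from -0.67 to -0.37, Uqcrc2 from -0.68 to -0.38, Atp5s from -0.95 to -0.55 and Atp5mc1 from 0.30 to 0.39. For the same comparison in DG the count of 0 became 2 with library weights (Ndufs7 and Sdha, both lower), where 171 of all genes were called.

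The other comparisons kept 0 called genes under the alternatives run. With 1 rat left out at a time, the median age change in CA1 ran from -0.23 (without 2526) to -0.11 (without 2532), and it was -0.08 with library weights and -0.06 without 2532 and 2572 together. That of young LPS against aged vehicle ran from 0.10 (without 2532) to 0.26 (without 2411). The medians near 0 for LPS in CA1 and for young LPS against aged vehicle in DG took both signs among the alternatives. In DG the median changes of -0.06 for LPS and -0.04 for age turned to 0.05 and 0.01 with library weights, and to 0.04 and 0.03 without rats 2526, 2572 and 2532. Without the pairing of the regions by rat (no replicate block), 0 genes were called for either region difference, with medians of 0.06 for LPS and -0.14 for age. With the pairing the LPS median turned to -0.02 without rat 2526 and to -0.01 without 2526, 2572 and 2532. The cause of these shifts was not tested.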
